A study of Mus musculus with 6 samples.

Results

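Aggrecanases are secreted zinc proteases of the ADAMTS family that cut the large proteoglycans of the matrix, and the genes described here are 7 of them (Adamts1, Adamts4, Adamts5, Adamts8, Adamts9, Adamts15 and Adamts20) with their substrate versican (Vcan), the hyaluronan synthase Has2 and the hyaluronan receptor Cd44. The 10 genes were chosen by symbol in the mouse GENCODE M21 annotation, out of 55536 genes in the count matrix, and all 10 passed the filter on low counts that left 15712 genes for testing. RNA sequencing measured them in perichondrium, the connective tissue sheath around cartilage, taken from the limb bones of mouse pups at postnatal day 4. There were 3 knockout libraries from Fbn1Scx-/- mice and 3 wild-type libraries from WT mice. After their titles, the knockout libraries are called mut-596, mut-597 and mut-795. The wild-type libraries are called WT-596, WT-597 and WT-795. Wherever 3 values are given for a group, they stand in that order. The title of mut-596 names ScxCRE, a Cre recombinase under the control of Scx, the gene of scleraxis, a transcription factor of tendon progenitors, so deletion of Fbn1 depends on the cells in which Scx was active. Fbn1 encodes fibrillin-1, the main protein of extracellular microfibrils. The sources used here give no strain, sex, Cre status of WT mice or pooling of animals. Separate animals for the libraries are not stated, so a p-value measures only how these libraries spread, which may be technical.

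Versican and aggrecan belong to the lecticans, proteoglycans whose N-terminal domain binds hyaluronan and whose core carries chondroitin sulfate chains. Versican fills the provisional matrix of mesenchyme and also binds fibrillin-1, while aggrecan fills cartilage. Has2 makes most of the hyaluronan of developing limb mesenchyme, CD44 tethers it at the cell surface, and ADAMTS proteases cleave versican and aggrecan and so clear this matrix. Adamts5 is the main aggrecanase of mouse cartilage, Adamts1, Adamts4, Adamts5, Adamts9, Adamts15 and Adamts20 are also known as versicanases, and Adamts8 belongs to the same branch of the family.

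The catalytic site is shared by the 7 proteases, and its codons are shown to compare the genes over this short stretch only. Each line gives 33 coding bases of GENCODE M21, 5′ to 3′ on the coding strand, and the capitals mark the codons of the 3 histidines that hold the zinc ion.
Adamts1: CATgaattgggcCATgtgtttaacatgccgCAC
Adamts4: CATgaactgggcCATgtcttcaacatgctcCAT
Adamts5: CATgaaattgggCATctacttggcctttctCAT
Adamts8: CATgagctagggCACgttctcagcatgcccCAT
Adamts9: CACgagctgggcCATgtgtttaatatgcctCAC
Adamts15: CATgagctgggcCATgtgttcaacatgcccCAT
Adamts20: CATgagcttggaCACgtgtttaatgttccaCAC
In all 7 genes the site is split across 2 neighbouring exons, and the positions below include the intron between them. In GRCm38 they are chr16:85799191-85799545 (minus strand, exons 3 and 4) for Adamts1, chr1:171253210-171253915 (plus strand, exons 3 and 4) for Adamts4 and chr16:85878015-85887826 (minus strand, exons 2 and 3) for Adamts5. They are chr9:30952721-30953378 (plus strand, exons 3 and 4) for Adamts8, chr6:92905285-92908493 (minus strand, exons 8 and 9) for Adamts9, chr9:30911255-30911690 (minus strand, exons 2 and 3) for Adamts15 and chr15:94353678-94355296 (minus strand, exons 8 and 9) for Adamts20. The Adamts5 site shared 18 to 21 of 33 bases with those of the 6 other genes, and the 15 pairs without Adamts5 shared 21 to 30 of 33.

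The versican core holds a site cut by these proteases, where the bond between a glutamate and an alanine is opened. Its codons are shown with flanking bases, the capitals marking the glutamate and alanine codons.
Vcan: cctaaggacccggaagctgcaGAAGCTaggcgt
The site lies at chr13:89693212-89693244 on the minus strand, in exon 8 of the longest Vcan coding transcript. The deposited values count reads per gene, so the versican isoforms with and without this exon could not be told apart.

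Total counts per library lay between 7209217 and 10316017. The targeted gene Fbn1 averaged 7.96 ± 1.81 CPM over the knockout libraries, against 89.1 ± 28.1 CPM over the wild types (SD, n = 3 each), where CPM is a count scaled to a common library size by the TMM method. It fell by 3.48 on the log2 scale (SE 0.29, edgeR adjusted p = 1.03e-04). It was the only gene past an edgeR adjusted p of 0.05, or 0.00636% of those tested, and the count went up to 1512 genes when WT-795 was left out. All 14 perichondrium and periosteum markers (among them Postn, Dcn and Prrx1) were measured, with a summed level between 39284 and 40335 CPM in knockout and between 39714 and 40538 CPM in wild type, most of it from Col1a1, Col1a2 and Col3a1. Of these markers 13 of 14 had a log2 fold change above 0, with a median of 0.17, and their part in the values of the 10 genes was not tested. Markers of cartilage and skeletal muscle were present too. The libraries mut-596 and mut-597 contained Xist (6221 and 4024 counts) and no Ddx3y counts, while the 4 other libraries had at most 4 Xist counts and between 842 and 1641 Ddx3y counts, so sex and genotype overlapped in part. GC-rich transcripts had lower fold changes than GC-poor ones (Spearman rho = -0.62 across 15701 genes, which do not count as replicates), and values from a fit corrected for GC in each library stand beside the fold changes they move by more than 1.5 times.

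None of the 10 genes passed the edgeR test over all genes, with adjusted p between 0.459 and 0.969. The log2 fold change of knockout over wild type was above 0 for 7 of them and below 0 for 3, against 50.9% above 0 over all genes tested, and their median was 0.29 beside 0.01 for all genes tested, or 0.23 with the GC correction. The knockout and wild-type values did not overlap for 2 of the 10, Adamts5 and Adamts9, both higher in knockout, and this held in the same direction for 5.66% of all genes tested. The same 2 genes had an unadjusted edgeR p under 0.05, against 3.37% of all genes tested that did so on the higher side. DESeq2 gave an adjusted p for 9 of the 10, all but Adamts8, and none of the 9 passed, against 0.0288% of the genes it adjusted. The exact two-sided permutation test on log2 CPM cannot go below 0.1 with 3 libraries against 3. In bulk tissue, fewer cells of a type and less RNA per cell cannot be told apart.

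**Figure D1:**
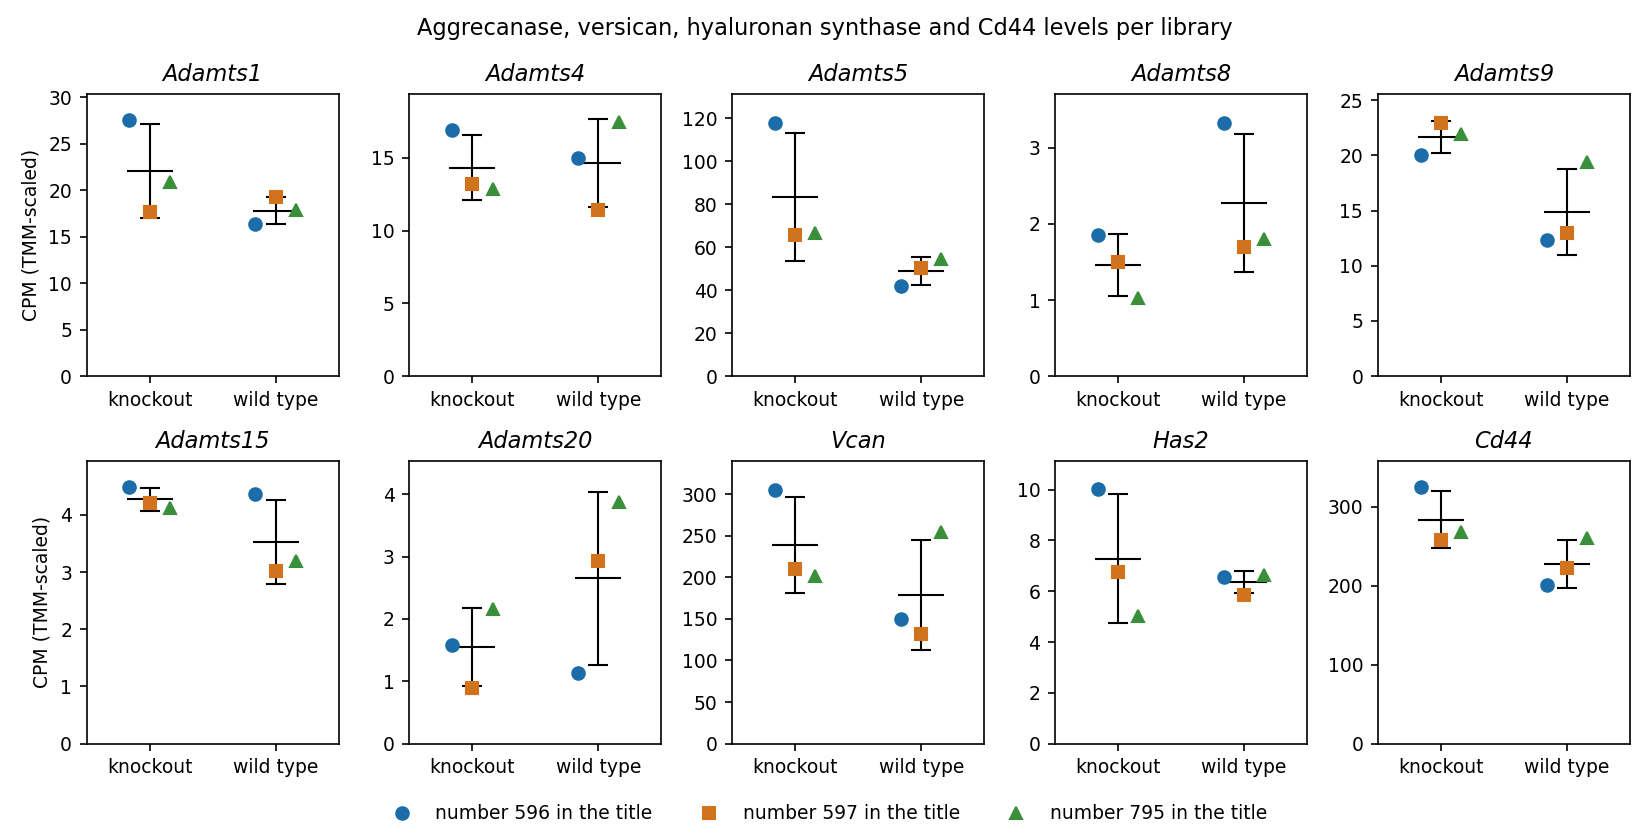
Level of each gene in CPM (TMM-scaled, axis from 0) in the knockout libraries and the wild-type libraries; points are libraries, with the same symbol for libraries whose titles carry the same number, and bars are the mean and SD (n = 3). Adamts5 and Adamts9 have no overlap between the groups, and for Vcan the WT-795 point at 255 CPM lies inside the knockout range.

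Adamts5 (ENSMUSG00000022894, chr16:85856173-85901828, minus strand, GRCm38) had the largest fold change among the 10 genes in the main fit, but not with the GC correction. In the corrected fit Adamts5 was at 0.53, and Adamts20 (-0.75), Adamts9 (0.57) and Adamts15 (0.55) were further from 0. Adamts5 was at 118, 65.5 and 66.8 CPM in the knockout libraries, against 42.0, 50.3 and 54.5 CPM in the wild-type libraries. Every knockout library lay above every wild-type library, with mut-596 far above the other two. The log2 fold change was 0.77 (SE 0.26), a 1.71-fold difference, with an edgeR adjusted p of 0.459 and an exact permutation p of 0.1. The counts behind it were 894, 437 and 649 in the knockout libraries, and 442, 533 and 393 in the wild-type libraries. The authors' deposited table, which holds 1643 genes, lists Adamts5 at 0.76 on a log scale that is taken as log2, and holds none of the 9 other genes. Without mut-596 the edgeR log2 fold change was 0.44 (SE 0.25), and with the Xist covariate, which sets mut-795 alone against wild type, it was 0.45 (SE 0.36).

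Adamts9 (ENSMUSG00000030022, chr6:92772699-92943492, minus strand), a versicanase needed for cardiac and palate development in mice, was at 20.1, 22.9 and 21.9 CPM in the knockout libraries, against 12.3, 12.9 and 19.4 CPM in the wild-type libraries. The knockout libraries lay close together and above all wild types, of which WT-795 came nearest. The log2 fold change was 0.55 (SE 0.24, edgeR adjusted p = 0.466). With the GC correction it was 0.57 (SE 0.23), and that of Adamts5 was 0.53 (SE 0.23). In that corrected fit the edgeR unadjusted p was 0.0268 for Adamts9 and 0.0352 for Adamts5, which made them 2 of the 10 genes under 0.05, against 6.05% of all genes tested in either direction and 1.88% on the higher side. Opposite-strand genes overlap the exons of Adamts9, the longest overlap being 1381 bases with A730049H05Rik. Strand use in the counting is not given, and A730049H05Rik had 19, 16 and 33 counts in the knockout libraries and 21, 13 and 31 in the wild-type libraries.

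Adamts1 lies next to Adamts5 on chromosome 16, on the same strand and 53059 bases away. It was at 27.6, 17.7 and 20.9 CPM in the knockout libraries, against 16.3, 19.2 and 17.9 CPM in the wild-type libraries. The groups overlapped, with mut-597 inside the wild-type range and mut-596 above all others. Its log2 fold change was 0.31 (SE 0.24, edgeR adjusted p = 0.574).

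Adamts4, an aggrecanase known from cytokine-treated cartilage, was at 16.9, 13.2 and 12.9 CPM in the knockout libraries, against 15.01, 11.4 and 17.5 CPM in the wild-type libraries. The ranges overlapped almost wholly. Its log2 fold change was -0.03 (SE 0.25, edgeR adjusted p = 0.969) and its sign turned under several other settings, to 0.24 with the GC correction.

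The 3 remaining proteases were low, with at most 46 counts in any library. Adamts15 was at 4.49, 4.20 and 4.11 CPM in the knockout libraries, against 4.37, 3.02 and 3.19 CPM in the wild-type libraries. Adamts8 was at 1.85, 1.4998 and 1.03 CPM in the knockout libraries, against 3.32, 1.70 and 1.80 CPM in the wild-type libraries. Adamts20, the gene of the belted coat-colour mutation of mice, was at 1.58, 0.900 and 2.16 CPM in the knockout libraries, against 1.14, 2.93 and 3.88 CPM in the wild-type libraries. All 3 overlapped between the groups. Adamts15 had a log2 fold change of 0.27 (SE 0.33, edgeR adjusted p = 0.718). Adamts8 was at -0.66 (SE 0.46, edgeR adjusted p = 0.545) and Adamts20 at -0.71 (SE 0.51, edgeR adjusted p = 0.552). With the GC correction Adamts15 was at 0.55 and Adamts8 at -0.29. These values rest on 10 to 35 counts a library for Adamts8 and 6 to 31 for Adamts20.

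Vcan (ENSMUSG00000021614, chr13:89655312-89742509, minus strand) was at 305, 210 and 201 CPM in the knockout libraries, against 150, 132 and 255 CPM in the wild-type libraries. The groups overlapped through WT-795 alone, which lay above mut-597 and mut-795. Its log2 fold change was 0.41 (SE 0.27, edgeR adjusted p = 0.527). Without WT-795 it was 0.73 (SE 0.23, edgeR adjusted p = 0.0577), and without mut-596 it was 0.20 (SE 0.30). In the fit without WT-795, Adamts5 was at 0.83 (adjusted p = 0.0576) and Adamts9 at 0.75 (adjusted p = 0.0517), so these 3 genes lay just outside the threshold while 9.62% of all genes passed it. With the GC correction Vcan was at 0.21 (SE 0.22).

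The summed level of 15 chondrocyte markers was 3088, 3092 and 3042 CPM in the knockout libraries, and 2196, 2251 and 3449 CPM in the wild-type libraries. This sum is mostly Col11a1, which made up 87.9%, 85.8% and 85.3% of it in the knockout libraries and 77.8%, 80.8% and 82.7% in the wild-type libraries. As with Vcan, the sum and Col11a1 in WT-795 were above those of the other wild types. Over the whole list 7 markers lay above 0 and 8 below, with a median of -0.09. Acan, Comp and Chad were lower in every knockout library than in any wild type, as held for 6.22% of all genes tested. Acan was at -0.54, or -0.27 with the GC correction. With a covariate for the 15 chondrocyte markers, Vcan was at 0.52 (SE 0.28). This covariate was the mean of their log2 CPM and not the sum, so Col11a1 weighed no more than any other marker. The covariate for muscle markers was made in the same way. The summed level of 19 muscle markers was 3384, 6715 and 6388 CPM in the knockout libraries, against 5788, 14204 and 4403 CPM in the wild-type libraries, and with a covariate for muscle markers Vcan was at 0.15 (SE 0.22). Of the muscle markers, 16 of 18 tested lay below 0 and none of either list was at 0 in every library. The part of these cells in the Vcan values was not tested beyond these fits.

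**Figure D2:**
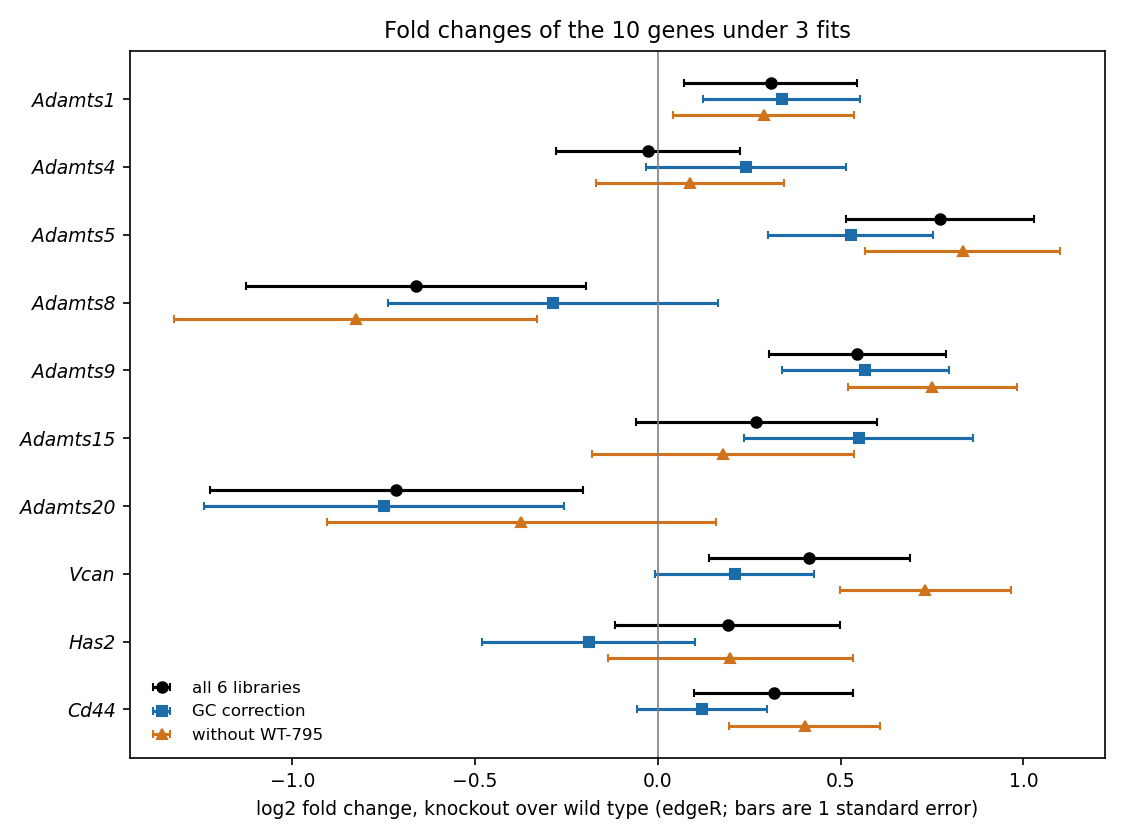
Log2 fold change of knockout over wild type for the 10 genes, from edgeR with all 6 libraries, with the GC correction and without WT-795; bars are 1 standard error. Adamts1, Adamts5, Adamts9, Adamts15, Vcan and Cd44 stay right of 0 in all 3 fits, and Adamts8 and Adamts20 stay left of it. Vcan moves between 0.21 and 0.73, and Has2 and Adamts4 change sign.

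Has2 (ENSMUSG00000022367, chr15:56665627-56694539, minus strand) was at 10.04, 6.75 and 5.04 CPM in the knockout libraries, against 6.55, 5.85 and 6.65 CPM in the wild-type libraries. The knockout libraries spread on both sides of the wild types. The log2 fold change was 0.19 (SE 0.31, edgeR adjusted p = 0.788) and turned to -0.19 with the GC correction and to -0.11 without mut-596. The antisense gene Has2os shares 182 exon bases with Has2 and had 31, 19 and 14 counts in the knockout libraries, against 25, 23 and 16 in the wild-type libraries.

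Cd44 (ENSMUSG00000005087, chr2:102811141-102901665, minus strand) was at 325, 258 and 268 CPM in the knockout libraries, against 201, 222 and 261 CPM in the wild-type libraries. The groups overlapped only through WT-795, which lay just above mut-597. The log2 fold change was 0.32 (SE 0.22, edgeR adjusted p = 0.538), and 0.12 with the GC correction. Leukocytes also carry CD44. The summed level of 6 pan-leukocyte markers was between 41.7 and 60.6 CPM in knockout and between 42.8 and 65.5 CPM in wild type, none of them was at 0 in every library, and their part in the Cd44 values was not tested.

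Scaled for transcript length (TPM, which divides counts by the length of the longest transcript of each gene), the order of the levels was nearly the same in both groups. Cd44 came highest, at 24.2 TPM in knockout and 19.9 TPM in wild type, then Vcan at 9.17 TPM in knockout and 6.90 TPM in wild type. Adamts5 led the proteases at 3.71 TPM in knockout and 2.22 TPM in wild type, and Adamts1 followed at 2.18 TPM in knockout and 1.81 TPM in wild type. Then came Adamts4 at 1.56 TPM in knockout and 1.64 TPM in wild type, Adamts9 at 1.28 TPM in knockout and 0.896 TPM in wild type, and Has2 at 0.814 TPM in knockout and 0.745 TPM in wild type. Adamts15, Adamts8 and Adamts20 lay between 0.112 and 0.344 TPM in knockout and between 0.178 and 0.325 TPM in wild type. In both groups Cd44, Vcan and Adamts5 were separated from each other in every library. Adamts1 and Adamts4 overlapped in range in both groups, as did Adamts9 and Has2.

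**Figure D3:**
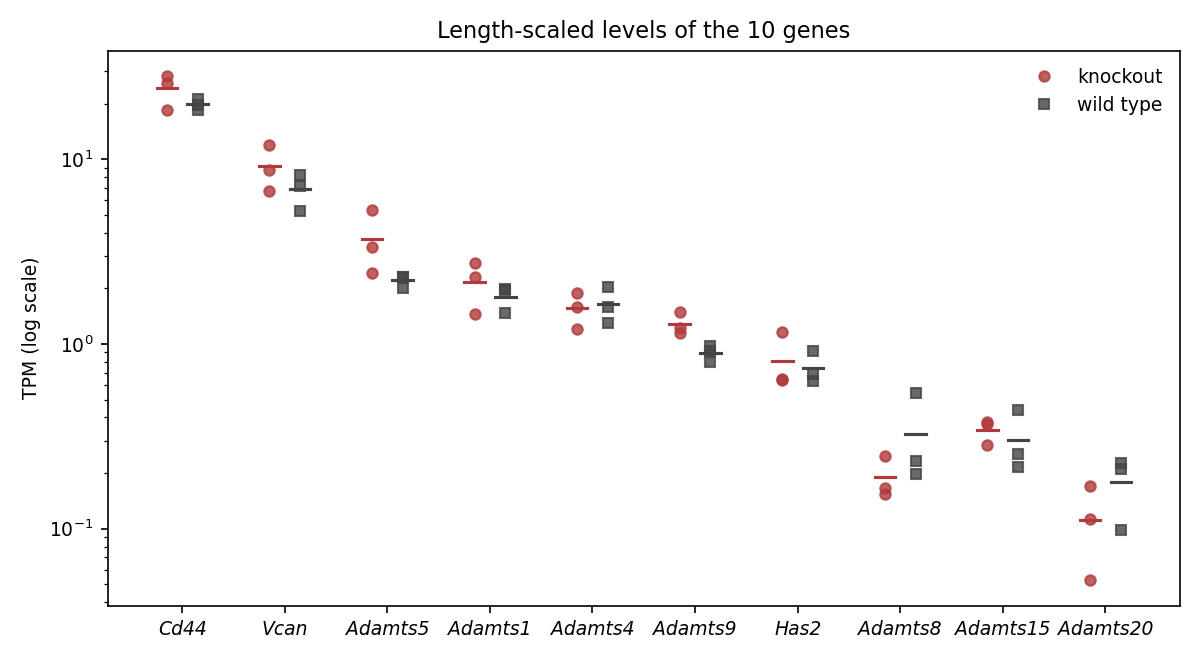
Length-scaled level (TPM, log axis) of the 10 genes, ordered by the wild-type mean, with the 3 knockout libraries left of the 3 wild-type libraries for each gene and short lines at the group means. Cd44, Vcan and Adamts5 lead in both groups, and Adamts8, Adamts15 and Adamts20 are at most 0.545 TPM in every library.

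Within a library, shares and ratios do not depend on the scaling between libraries, but they do depend on GC content where the genes differ in it. Adamts5 made up 44.8%, 36.1% and 35.5% of the summed TPM of the 7 proteases in the knockout libraries, against 27.8%, 32.8% and 30.2% in the wild-type libraries. Adamts4 made up 15.8%, 17.9% and 16.8% in the knockout libraries, against 24.4%, 18.3% and 23.8% in the wild-type libraries. Neither share overlapped between the groups, that of Adamts5 being higher in knockout and that of Adamts4 lower by a narrow margin. Shares of a common total are bound to each other, so a higher share of Adamts5 lowers those of the others. On its few counts, Adamts8 also had a lower share in every knockout library (at most 2.46%) than in any wild type (at least 2.97%). The 7 genes summed to 11.9, 6.75 and 9.45 TPM in the knockout libraries, against 8.34, 7.06 and 6.69 TPM in the wild-type libraries, and these sums overlapped. The transcript GC content of Adamts5 is 43.7% and that of Adamts4 is 55.2%, and these shares are not corrected for it.

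**Figure D4:**
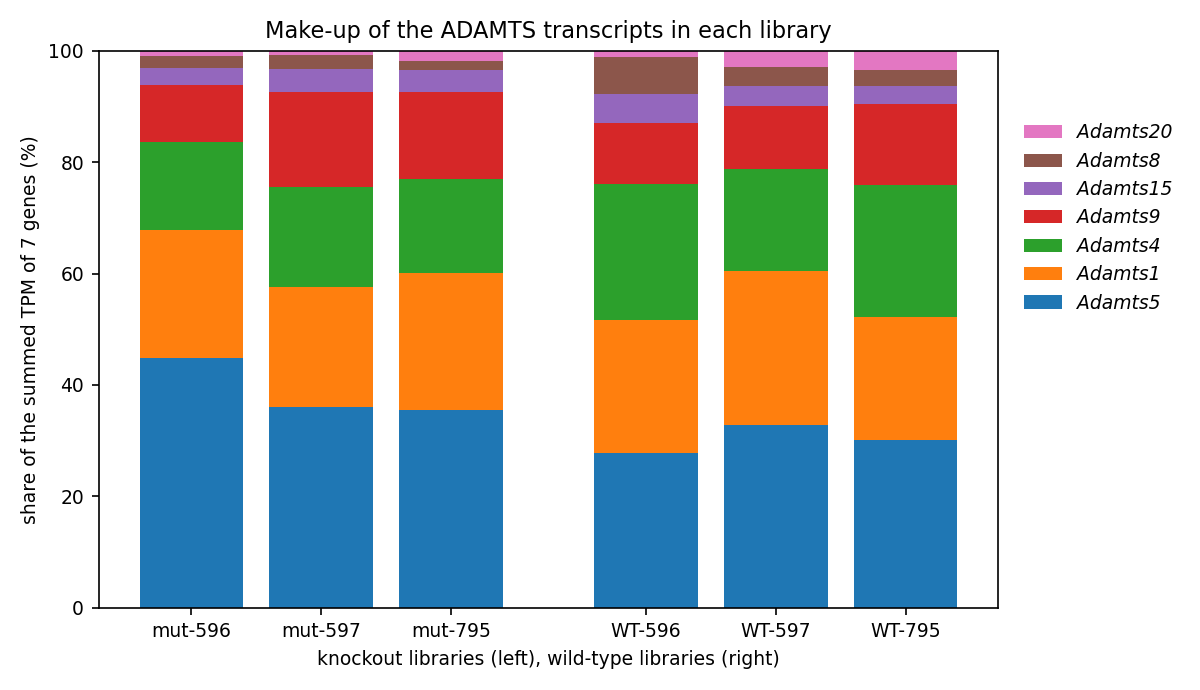
Share of each of the 7 ADAMTS genes in their summed TPM (stacked to 100%), with the 3 knockout libraries on the left and the 3 wild-type libraries on the right. The lowest block, Adamts5, is between 35.5% and 44.8% in knockout and between 27.8% and 32.8% in wild type.

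Adamts5 had 4.28, 3.70 and 3.20 counts per count of its neighbour Adamts1 in the knockout libraries, against 2.57, 2.61 and 3.05 in the wild-type libraries. Per count of Adamts4 it had 6.98, 4.97 and 5.19 in the knockout libraries, against 2.80, 4.405 and 3.12 in the wild-type libraries. Neither ratio overlapped between the groups, and the exact two-sided permutation p was 0.1 for each, the smallest possible here, and 0.2 adjusted over 4 ratios. Vcan had 4.02, 2.28 and 2.92 counts per count of Acan, the aggrecan gene, in the knockout libraries, against 1.46, 0.954 and 2.52 in the wild-type libraries, with WT-795 inside the knockout range (exact permutation p = 0.2, adjusted p = 0.267). Cd44 per Vcan overlapped broadly (exact permutation p = 0.6, adjusted p = 0.6). The difference between the fitted log2 fold changes of Adamts5 and Adamts4 was 0.80, and 0.29 with the GC correction. It was 0.46, and 0.19 with the GC correction, between Adamts5 and Adamts1, and 0.95, and 0.48 with the correction, between Vcan and Acan. These 4 pairs were chosen after the values of the genes were seen.

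**Figure D5:**
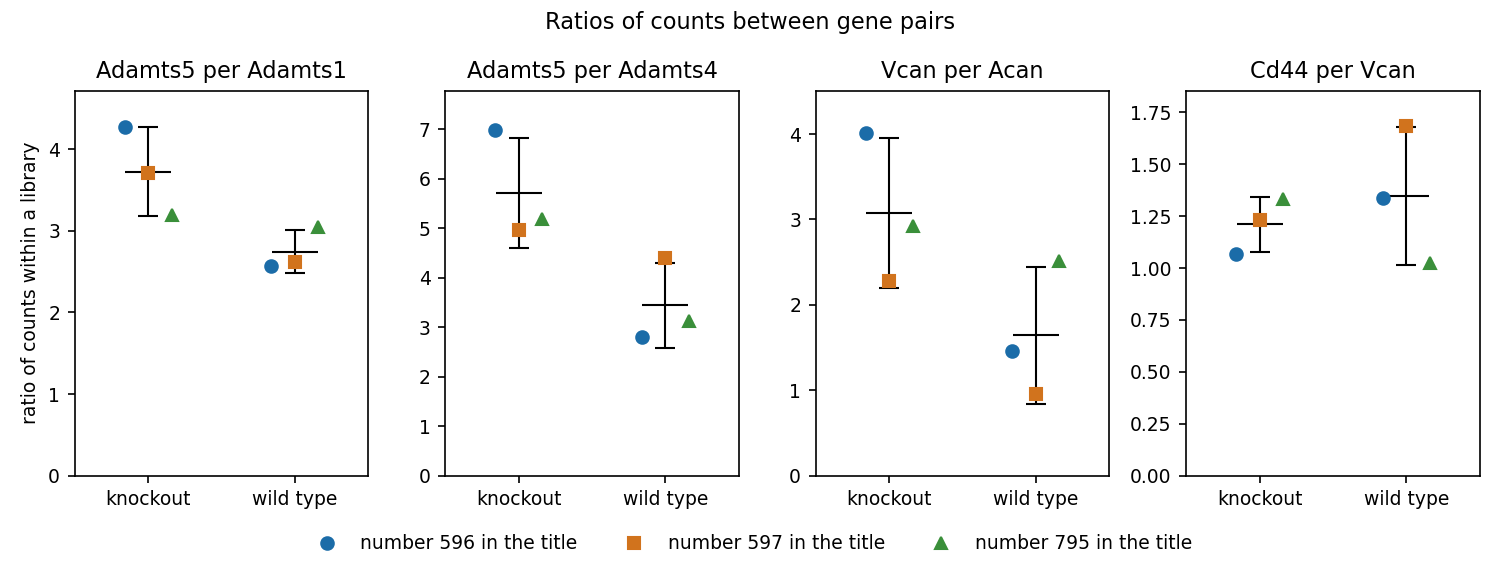
Ratio of counts between pairs of genes within each library (axis from 0), for knockout and wild type; bars are the mean and SD of 3 libraries. Adamts5 per Adamts1 and Adamts5 per Adamts4 do not overlap between the groups, while Vcan per Acan and Cd44 per Vcan do.

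By the profile over the 6 libraries, the gene closest to Vcan among 7591 well-measured genes was Naa16, a subunit of an N-terminal acetyltransferase, with a root mean square difference of 0.03 on the centred log2 CPM scale. Magi3 and Pde4d followed at 0.03 and 0.04. The genes closest to Adamts5 were Arhgap20 (0.09), Cd55 (0.13) and Tmem87a (0.14). Among the 10 genes themselves, Adamts1 and Cd44 were closest to each other, at 0.13, and Cd44 was also the nearest of the 10 to Vcan, Adamts9 and Adamts15.

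Genes around this pathway were read from the same fit, and none of them passed. Of 12 other ADAMTS genes, which include procollagen and von Willebrand factor proteases, 10 were tested, with 8 above 0 and a median log2 fold change of 0.20, or 0.27 with the GC correction. Adamts19 averaged 6.15 ± 2.83 CPM in the knockout libraries, against 3.09 ± 0.681 CPM in the wild-type libraries (SD, n = 3 each). Its log2 fold change was 0.98 (SE 0.37, edgeR adjusted p = 0.459). The authors' deposited table holds 10 of the genes around this pathway. It lists Adamts19 (0.98) and Xylt1 (0.64) above 0. Acan (-0.54), Timp2 (-0.78), Pcsk6 (-0.63), Chpf (-0.91), Chpf2 (-0.59), Chst12 (-0.98), Chst13 (-0.96) and Chst14 (-0.81) are listed below 0. Adamts6 was at 0.52, or 0.28 with the GC correction, and Adamts3, a procollagen protease, at 0.48.

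Among lecticans and link proteins other than Vcan, 4 of 5 tested genes were below 0, with a median log2 fold change of -0.43, or -0.09 with the GC correction. Acan was at 75.9, 91.8 and 68.9 CPM in the knockout libraries, against 103, 138 and 101 CPM in the wild-type libraries. The groups did not overlap, as held for 6.22% of all genes tested on the lower side, and the log2 fold change was -0.54 (SE 0.22, edgeR adjusted p = 0.459), or -0.27 with the GC correction. Bcan, the brain lectican, was at -0.71 and Hapln1, the cartilage link protein that locks lecticans to hyaluronan, at 0.33, and with the GC correction they were at -0.27 and 0.03. Hapln1 is also one of the chondrocyte markers, and without WT-795 it passed the test, at 0.88 (edgeR adjusted p = 0.0362).

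Among hyaluronan synthesis genes other than Has2, 8 of 12 lay above 0 with a median of 0.09, or -0.07 with the GC correction. Has3, a second synthase, had 7, 11 and 9 counts in the knockout libraries, against 26, 27 and 13 in the wild-type libraries, a log2 fold change of -0.99 (SE 0.46, edgeR adjusted p = 0.471) on few counts. Has1 was at 0.02 (SE 0.39), the precursor enzyme gene Pgm3 at 0.52 and the hexokinase Hk1 at -0.42, and with the GC correction Has1 was at -0.03 and Hk1 at -0.10. Has2 made up 63.1%, 60.5% and 61.7% of the summed TPM of the 3 synthases in the knockout libraries, against 52.3%, 53.4% and 59.96% in the wild-type libraries. These shares did not overlap, though by a narrow margin. The mean Has1 share was 30.6% in both groups, and that of Has3, on its few counts, was 7.6% in knockout and 14.1% in wild type. Transcript GC content is 40.6% for Has2, 48.1% for Has1 and 49.0% for Has3, and the shares are not corrected for it.

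Of the hyaluronan breakdown genes, 7 were tested, with 3 above 0 and a median of -0.09, or 0.04 with the GC correction. Hexa, a subunit gene of lysosomal hexosaminidase, was at -0.43, the hyaluronidase Hyal2 at -0.48, and Cemip2, a cell-surface hyaluronidase, at 0.46. Hexa was at -0.14 and Hyal2 at -0.18 with the GC correction. Of the hyaluronan receptors and binding proteins, 11 were tested, with 6 above 0 and a median of 0.00, or 0.08 with the GC correction. Tlr4, a receptor of innate immunity, was at 0.59, Habp4 at -0.47 and Lyve1, the hyaluronan receptor of lymphatic vessels, at 0.37. Tlr4 was at 0.19 and Lyve1 at 0.21 with the GC correction.

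Among genes that activate, inhibit or clear ADAMTS proteases, or serve as cofactors, 10 of 13 tested lay below 0 with a median of -0.21, but the median was 0.0014 with the GC correction. Timp3, the tissue inhibitor that binds aggrecanases, averaged 204 ± 42.9 CPM in the knockout libraries, against 153 ± 32.7 CPM in the wild-type libraries (SD, n = 3 each), a log2 fold change of 0.41 (SE 0.24, edgeR adjusted p = 0.491). The endocytic receptor gene Lrp1 and the propeptide convertase gene Furin were at -0.38 (SE 0.22) and -0.38 (SE 0.24), and with the GC correction at -0.02 and -0.06. Timp2, Pcsk6 and Fbln1, a cofactor of ADAMTS1, were at -0.77, -0.62 and -0.48, and with the GC correction at -0.52, -0.30 and -0.22.

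All 22 chondroitin and dermatan sulfate genes were tested, with 11 above 0 and 11 below and a median of 0.03, or 0.15 with the GC correction. An unadjusted edgeR p under 0.05 was reached by 6 of them, 1 higher and 5 lower, against 3.37% of all genes tested higher and 7.12% lower. With the GC correction it was reached by 2 higher genes, Xylt1 (0.72) and Chst7 (0.82), and by 0 lower ones, against 1.88% of all genes tested higher and 4.17% lower. The chain polymerase gene Chpf was at -0.89, the sulfotransferase gene Chst12 at -0.97 and Chpf2 at -0.58, and with the GC correction they were at -0.49, -0.60 and -0.21. Of 14 tested CD44 partners, sheddases and linkers, 10 lay above 0 with a median of 0.05, and Met, Adam17 and Cd74 were at 0.66, 0.44 and -1.10. With the GC correction the median of these genes was 0.03, Adam17 was at 0.26 and Cd74 at -0.70.

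Leaving out WT-795 brought 8 of these related genes past the edgeR test, in a fit where 9.62% of all genes passed. Timp2 was then at -1.03, Pcsk6 at -0.81, Chpf at -1.22, Chst12 at -1.32, the dermatan sulfotransferase gene Chst14 at -1.06 and Cd74 at -1.57. Hapln1 and Adam10, a sheddase of CD44, were at 0.88 and 0.70.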

How the data were processed

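The authors deposited whole-number counts per gene, not normalized, and a table of log2 fold changes. The submitters' processing notes name GRCm38.p6 and DESeq2. Per the labels' protocols, low-input SMART-Seq v4 and Nextera XT libraries were made. Which counter was run, and how it handled strand and multiply matching reads, is not stated in these sources. The base of the authors' deposited log2 values was judged from the values.

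The main test was edgeR 4.0.16 (glmQLFit, glmQLFTest) in R 4.3.3 with TMM scaling, filterByExpr by group, no covariates, two-sided, with Benjamini-Hochberg adjustment over 15712 genes and a threshold of 0.05. Standard errors are the log2 fold change over the root of F. Log2 CPM used a prior count of 2. DESeq2 1.42.0 and limma 3.58.1 were alternatives, and the procedure was tested on simulated data. The GC correction took a lowess fit (span 0.3) of each library's deviation on transcript GC content. Symbols, positions, lengths and coding bases came from GENCODE M21, on GRCm38. Without molecular identifiers, a count is of reads and not of molecules.

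The genes and lists were chosen with earlier results of these data known. Named beside the 10 genes were Fbn1, up to 3 genes per list with the smallest unadjusted p, and Acan, Hapln1, Has1, Has3, Timp3, Lrp1 and Furin. Chst13, Chst14, Adam10, Xylt1, Chst7, Col11a1, Comp and Chad were named after their values were seen. Likeness to Vcan and Adamts5 was measured among genes with an established symbol whose log2 CPM averaged 3 or more. Likeness among the 10 genes themselves had no such limit.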

Additional observations from a re-analysis of the deposited data

How the results depend on the processing

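None of the 10 genes was called under any of 21 alternatives. The signs of Adamts1, Adamts5, Adamts8, Adamts9, Adamts15, Adamts20, Vcan and Cd44 held in all 21. Adamts4 turned positive with the GC correction (0.24), with the replicate block and GC correction (0.26) and with the chondrocyte covariate (0.018), and lay between -0.19 and 0.088 with 1 library left out. Has2 turned negative with the GC correction (-0.19), with the replicate block and GC correction (-0.21), with the Xist covariate (-0.33), with the muscle covariate (-0.0036) and without both Xist libraries (-0.35), and lay between -0.11 and 0.40 with 1 library left out. The cause was not tested. Adamts5 ranged from 0.43 to 0.92, Adamts9 from 0.43 to 0.75 and Vcan from 0.15 to 0.73 over the 21 alternatives.

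The count of all genes called was 270 with no filter, 4 by DESeq2, 4 with the replicate block and GC correction and 0 with the Xist covariate, where Fbn1 had an edgeR adjusted p of 0.104 and 490 genes an unadjusted p under 0.05. It ranged from 1 to 1512 with 1 library left out, being 9 without mut-795 and 1512 without WT-795. The related genes called were 1 with no filter and ranged from 0 to 8 with 1 library left out, all 8 without WT-795 (Timp2, Chpf, Chst12, Cd74, Chst14 and Pcsk6 lower, Hapln1 and Adam10 higher). The share of Adamts5 among the proteases in knockout was 38.8%, and 44.2% with the union of exons as length. Titles share numbers between groups, but the meaning of the numbers is not stated, so same-numbered libraries were not taken as pairs. Their deviations from the group means had correlations of -0.18, 0.24 and -0.20. These values cannot decide whether the libraries are pairs, because deviations from a mean of 3 libraries are bound to each other. With the replicate block 1 gene was called and none of the 10.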
